A study of Mus musculus with 6 samples.

Results

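The 7 genes described here, Krt7, Krt19, Krt23, Epcam, Spp1, Sox9 and Prom1, mark the epithelial cells of the bile ducts and the progenitor-like cells of ductular reactions. They were taken by symbol from the 50600 genes of the deposited tables, each symbol matched 1 row, and all 7 were among the 14314 genes that passed the count filter. Messenger RNA of whole mouse liver was sequenced in 6 libraries. In 3 of them (Dicer LKO, n = 3) the mice carried loxP-flanked Dicer alleles and a Cre recombinase under the albumin promoter (genotype Dicerloxp/loxp;Alb-cre), and in 3 controls (n = 3) they carried the same loxP-flanked alleles without Cre (Dicerloxp/loxp). All animals were C57BL/6 and 1 month old, and the comparison asks which transcripts differ in liver when Dicer, the enzyme that cuts miRNA precursors into mature miRNAs, is deleted by a Cre that the albumin promoter drives. That promoter is active in hepatocytes and in the embryonic hepatoblasts from which both hepatocytes and bile duct cells derive, so the labels do not say in which cells of these livers Dicer was lost.

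Bile ducts are lined by cholangiocytes, which carry bile out of the liver and modify it by secretion. They and hepatocytes come from a common embryonic progenitor, and Notch signalling and the transcription factor Sox9 take part in the choice of the duct fate. In injured liver, small duct-like cells with mixed hepatocyte and duct features can spread from the portal tracts, a ductular reaction, and the keratins, Epcam, Spp1, Sox9 and Prom1 are used to recognise them. In RNA of whole tissue, a higher number of such cells and more RNA per cell cannot be told apart.

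The libraries held 14141973 to 25049749 counts, and control replicate 3 was the shallowest and had the highest mitochondrial share (10.2% against 4.62% to 6.46% in the others). Dicer1 was at 28.9, 31.2 and 24.4 CPM (CPM scales a count by the TMM-adjusted library size) in Dicer LKO, against 42.5, 69.3 and 56.1 CPM in the controls. All 3 Dicer LKO libraries thus lay below the controls, in the direction of the labels, but the difference missed the threshold (log2 fold change −0.99, SE 0.20, adjusted p = 0.0622, edgeR quasi-likelihood). The hepatocyte gene Alb was measured at 24333.1 to 52052.5 CPM over the 6 libraries, so all had the defining transcript of liver. Nothing in the labels shows that the libraries came from separate animals, and p-values therefore measure the spread between these libraries, which may be partly technical.

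Of the 7 genes, 6 were higher in all 3 Dicer LKO libraries than in all 3 controls, an order found for 12.7% of the genes tested. Spp1 and Epcam rose at an adjusted p under 0.05 (edgeR quasi-likelihood test, Benjamini-Hochberg over all genes tested), and 0 of the 7 fell. Over all genes, 1.29% were called in either direction and 0.741% were called higher. Krt7, Krt19 and Prom1 had log2 fold changes above 2 with adjusted p-values of 0.0608 to 0.0816, Krt23 had a smaller value, and Sox9 had a negative one. The median log2 fold change of the 7 genes was 2.30, beside −0.01 over all genes tested. DESeq2 called 5 of the 7 higher (Krt7, Krt19, Epcam, Spp1 and Prom1), where it called 3.12% of its genes higher. The call of Krt7, Krt19 and Prom1 thus depended on the tool. In edgeR, 0 of the 7 were called without control replicate 3 (6 had an unadjusted p under 0.05), and leaving out control replicate 2, Dicer LKO replicate 1 or Dicer LKO replicate 3 left 1 called. Krt7 and Krt19 reached the level of the count filter (0.450 CPM) in 2 of the 3 controls, so they were tested because of their Dicer LKO libraries. The 7 genes were also chosen with earlier results of these data known. A count or a median over the genes that passed is therefore no support for a common direction. For any single gene, the exact two-sided permutation test of 3 against 3 cannot give less than 0.1, and it gave 0.1 for each of the 6 higher genes and 0.4 for Sox9.

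**Figure D1:**
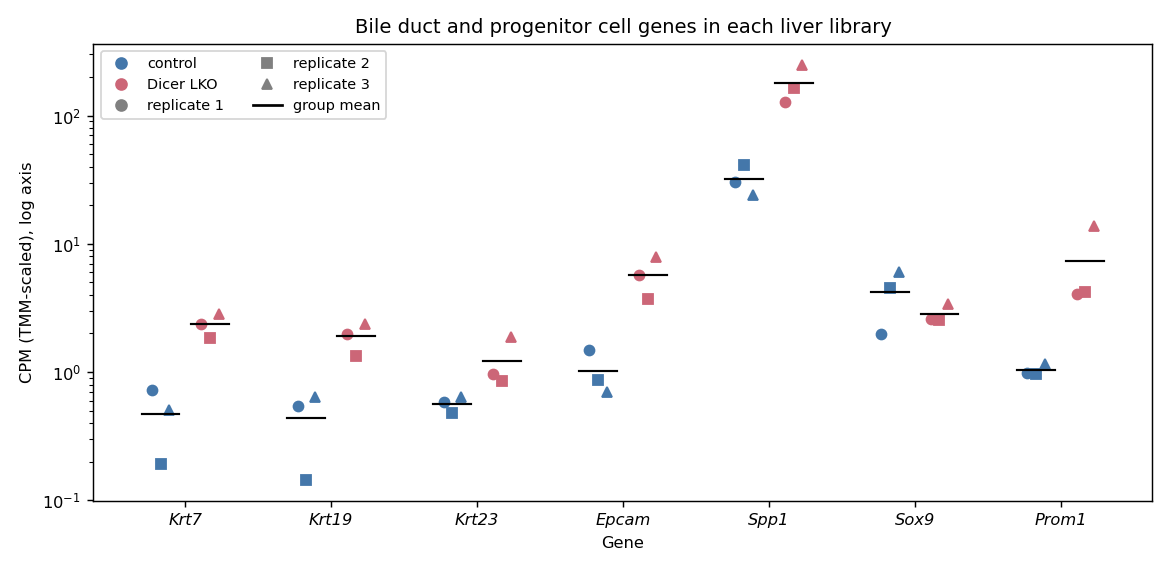
CPM (log axis) of each of the 7 genes in 3 control libraries (blue) and 3 Dicer LKO libraries (red), with symbols for the replicate number and black bars for group means. For 6 genes all red points lie above all blue points, while those of Sox9 overlap.

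Spp1 encodes osteopontin, a secreted phosphoprotein that binds integrins and CD44 and is made by bile duct cells and also by activated macrophages. It was by far the most abundant of the 7, and its first annotated start site is shown because it was the member with the clearest difference. Its gene lies at chr5:104435118-104441050 (GRCm38, plus strand), and the transcript Gm42793 overlaps it with only 0 to 4 counts a library. The RefSeq promoter window (GRCm38.p6, chr5:104434861-104435160, plus strand, from 250 bases before the start to 50 after it) is printed with matches to the searched motifs in capitals.
Spp1: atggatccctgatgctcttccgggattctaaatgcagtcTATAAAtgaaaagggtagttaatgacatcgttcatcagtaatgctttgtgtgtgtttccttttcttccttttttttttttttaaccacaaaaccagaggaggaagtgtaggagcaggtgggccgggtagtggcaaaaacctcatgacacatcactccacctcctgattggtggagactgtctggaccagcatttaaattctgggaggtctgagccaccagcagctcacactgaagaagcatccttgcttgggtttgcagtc

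The capitals mark a TATAAA match (the TATA box motif, in 13.6% of the 32851 RefSeq promoter windows of this length, both strands searched). Such a match is a description of letters and not evidence of binding. Spp1 was measured at 127, 165 and 249 CPM in Dicer LKO replicates 1, 2 and 3 and at 30.3, 40.9 and 24.0 CPM in controls 1, 2 and 3. The lowest Dicer LKO library was 3.11 times the highest control. The means were 180 ± 62.4 and 31.7 ± 8.50 CPM (SD, n = 3 each), with a log2 fold change of 2.5 (SE 0.30, adjusted p = 0.0196, edgeR). Without control replicate 3 the value was 2.36 and the call was lost (adjusted p = 0.0688), and without each other library it was kept.

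Epcam encodes a surface adhesion molecule of epithelial cells that duct and progenitor cells carry and mature hepatocytes lack. The gene is at chr17:87635979-87651129 (GRCm38, plus strand), and its RefSeq promoter window (GRCm38.p6, chr17:87635729-87636028, plus strand) is shown as the counterpart of that of Spp1, the other gene that rose.
Epcam: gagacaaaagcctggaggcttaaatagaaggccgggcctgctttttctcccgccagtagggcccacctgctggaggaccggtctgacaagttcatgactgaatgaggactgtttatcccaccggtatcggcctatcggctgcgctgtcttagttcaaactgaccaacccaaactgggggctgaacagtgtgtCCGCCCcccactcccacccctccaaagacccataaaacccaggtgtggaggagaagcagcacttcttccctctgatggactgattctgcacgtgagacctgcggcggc

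Its only match is a GC box (GGGCGG on the opposite strand, in 35.7% of windows). The windows of Spp1 and Epcam thus shared none of the 6 searched motifs. The motifs were the TATA box and GC box letters above, TGGGAA (core of the site of RBPJ, the DNA-binding partner of Notch), GGAATG (core of the site of the TEAD factors, partners of YAP), ACAAT (core of SOX sites) and TGANTCA (AP-1), searched on both strands. Windows of Krt7, Krt23 and Prom1 were searched as well, and those of Krt19 and Sox9 were not searched. The first window of Prom1 held the RBPJ, AP-1 and GC box letters, its second window the AP-1 letters, that of Krt7 held 4 GC boxes and that of Krt23 the SOX letters. A second window of Spp1 held 0 matches. The RBPJ letters are in 25.6% of all windows, the AP-1 letters in 7.81% and the SOX letters in 31%. Epcam was at 5.73, 3.72 and 7.85 CPM in Dicer LKO and at 1.49, 0.864 and 0.701 CPM in the controls. All 3 Dicer LKO libraries were above the highest control, control replicate 1. The counts behind these levels were 125, 78 and 197 against 33, 18 and 11, with a log2 fold change of 2.48 (SE 0.38, adjusted p = 0.0347, edgeR). The direction held without each library. The call did not: omitting Dicer LKO replicate 1 gave an adjusted p of 0.104 (edgeR), omitting Dicer LKO replicate 3 gave 0.117, and omitting control replicate 2 or 3 gave 0.0837 or 0.108. With limma voom it was 0.0551.

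Prom1 encodes prominin-1 (CD133), a membrane glycoprotein of cell protrusions that is used to sort progenitor cells. It had the largest log2 fold change of the 7 genes and the largest spread within Dicer LKO. The gene lies at chr5:43993620-44102032 (GRCm38, minus strand), and both transcripts that overlap it had at most 2 counts in any library. Its level was 4.04, 4.24 and 13.7 CPM in Dicer LKO while controls 1, 2 and 3 had 0.992, 0.961 and 1.15 CPM. Dicer LKO replicate 3 stood at 3.4 times the lowest Dicer LKO library, whereas the 3 controls differed by at most 1.195 times. The log2 fold change was 2.83 (SE 0.54, adjusted p = 0.0624, edgeR), which missed the threshold, and it was 2.0 without Dicer LKO replicate 3 (adjusted p = 0.0597). The values of Dicer LKO replicates 1 and 2 still lay 3.52 times or more above the highest control.

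Krt19 and Krt7 encode keratins, the intermediate filament proteins of epithelia. Krt19 is a type I and Krt7 a type II keratin, the 2 types pair to form filaments, and in liver both are made by duct cells, while hepatocytes make mainly Krt8 and Krt18. Krt19 (chr11:100140810-100148665, GRCm38, minus strand) was at 1.97, 1.33 and 2.39 CPM in Dicer LKO and 0.541, 0.144 and 0.638 CPM in the controls. Control replicate 2 was the lowest, with 3 counts, and the other libraries had 10 to 60. The log2 fold change was 2.12 (SE 0.50, adjusted p = 0.0816, edgeR), with a range of 1.71 to 2.47 without each library. Krt7 (chr15:101411043-101430313, GRCm38, plus strand) was at 2.38, 1.86 and 2.83 CPM against 0.721, 0.192 and 0.510 CPM. Control replicate 2 was again the lowest, with 4 counts. For Krt7 the log2 fold change was 2.30 (SE 0.45, adjusted p = 0.0608, edgeR), and 2.78 without control replicate 1, where it was called (adjusted p = 0.0433). The antisense gene Gm671 overlaps Krt7 and was not analysed here. Since the strand setting is not given in the sources used here, its reads and those of Krt7 cannot be told apart.

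Krt23, a type I keratin reported in stressed and ductular liver epithelium, lies on the same chromosome as Krt19, 663 kb away (chr11:99477974-99493137, GRCm38, minus strand). Its level was 0.963, 0.858 and 1.87 CPM in Dicer LKO and 0.586, 0.480 and 0.638 CPM in the controls. The groups did not overlap, but the lowest Dicer LKO library was only 1.35 times the highest control. The log2 fold change was 1.12 (SE 0.41, adjusted p = 0.180, edgeR), and 0.69 without Dicer LKO replicate 3, the library with 47 counts beside 21 and 18 in the other Dicer LKO libraries. The filament proteins shared by hepatocytes and ducts, Krt8 and Krt18, had log2 fold changes of 0.43 (adjusted p = 0.243, edgeR) and 0.29 (adjusted p = 0.474).

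Sox9 encodes a transcription factor of duct and progenitor cells that is also expressed by activated stellate cells. Unlike the other 6 genes it was not higher in Dicer LKO. The gene is at chr11:112782224-112787760 (GRCm38, plus strand). Its level was 2.61, 2.53 and 3.39 CPM in Dicer LKO and 1.98, 4.51 and 6.06 CPM in the controls. All 3 Dicer LKO libraries fell between the lowest and the middle control. The log2 fold change was −0.55 (SE 0.39, adjusted p = 0.463, edgeR), and ran from −0.89 without control replicate 1 to −0.17 without control replicate 3. No difference was shown in either direction. Whether Sox9 differed from the other genes in its response was not tested.

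**Figure D2:**
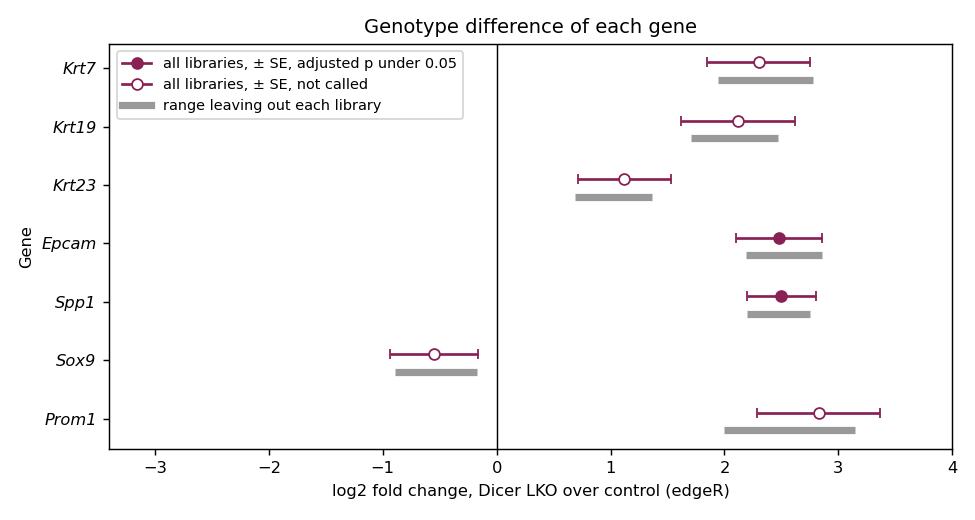
Log2 fold change of Dicer LKO over control for each gene (edgeR), with filled points for genes called at an adjusted p under 0.05, bars of ± 1 SE, and grey bars for the range when each library is left out. Spp1 and Epcam are the filled points, and the grey bars of 6 genes lie to the right of 0 while that of Sox9 runs from −0.89 to −0.17.

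Compared per length, in TPM (the authors' length-corrected unit, which sums to the same total in each library), the genes were ordered differently in the groups. In the controls the mean level was 18.9 TPM for Spp1, 0.777 for Sox9, 0.403 for Epcam, 0.343 for Prom1, 0.323 for Krt19, 0.303 for Krt23 and 0.0933 TPM for Krt7. Sox9 was thus the next most abundant after Spp1, but its controls (0.37 to 1.16 TPM) overlapped those of Epcam (0.29 to 0.59), Prom1 (0.21 to 0.51) and Krt19 (0.07 to 0.50). In Dicer LKO the mean levels were 101 TPM for Spp1, 2.13 for Epcam, 1.92 for Prom1, 1.35 for Krt19, 0.617 for Krt23, 0.483 for Sox9 and 0.457 TPM for Krt7. Sox9 was sixth in that order, and its libraries (0.40 to 0.60 TPM) overlapped those of Krt23 (0.40 to 0.97) and Krt7 (0.42 to 0.52). Spp1 made up 83.7% to 95.1% of the summed TPM of the 7 genes in every library. A sum over the genes would therefore follow Spp1 alone. Without Spp1 and Sox9, the other 5 summed to 5.19, 4.03 and 10.2 TPM in Dicer LKO and to 1.75, 0.900 and 1.75 TPM in the controls.

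All 7 genes had their highest Dicer LKO level in replicate 3. Replicate 2 was the lowest Dicer LKO library for 5 of them (the 3 keratins, Epcam and Sox9), and replicate 1 for Spp1 and Prom1. Among the controls, replicate 2 was lowest for Krt7, Krt19, Krt23 and Prom1. Within groups, after each group's mean was subtracted, Krt7 and Krt19 deviated together (Pearson r = 0.930 over the 6 libraries), as did Krt23 and Prom1 (0.964). Spp1 did not follow Krt7 or Krt19 in this way (r = −0.284 and −0.381). These are descriptions over 6 libraries, in which all genes share each library's depth and composition. Over the 15 pairs without Sox9, r without subtraction was 0.788 to 0.982 (median 0.887), against −0.381 to 0.964 (median 0.518) within groups, and the 6 pairs with Sox9 had r of −0.527 to −0.174.

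**Figure D3:**
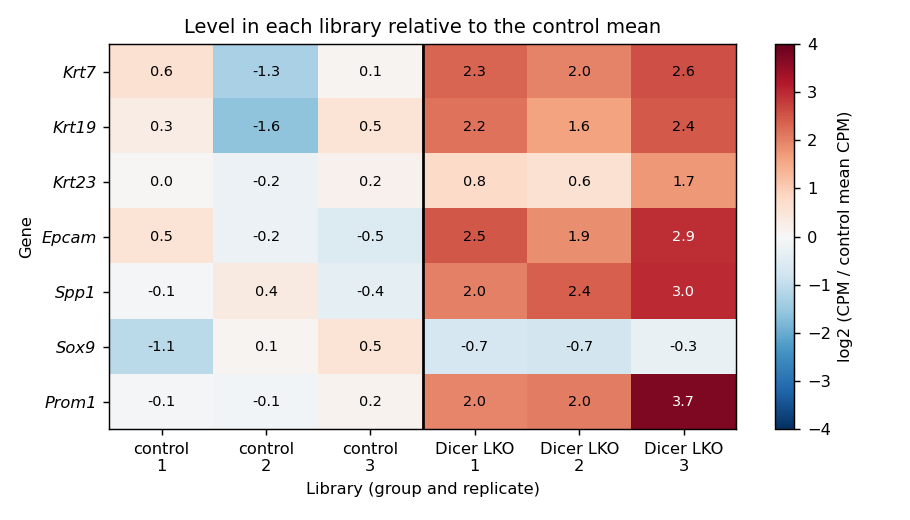
Log2 ratio of each library's CPM to the control mean for each gene (rows) in each library (columns, controls left of the black line). Dicer LKO replicate 3 has the highest ratio of the Dicer LKO libraries in every row, 3.73 for Prom1 and 2.97 for Spp1, and the row of Sox9 is negative in all 3 Dicer LKO libraries.

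Because Dicer makes miRNAs, the 3′ untranslated regions of the 7 genes were searched for sites of miRNA families known from liver. For 11 miRNAs, the letters pairing with bases 2 to 8 (the seed) were sought in the longest region of each gene's transcripts in the deposited tables. Sites were found in Krt7 and Sox9 only, and 3 miRNAs are shown with their seeds in capitals (RefSeq, GRCm38.p6).
miR-29a-3p: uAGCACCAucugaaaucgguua
miR-30a-5p: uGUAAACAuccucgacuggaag
miR-101a-3p: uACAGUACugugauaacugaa

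The matching stretches, with the letters that pair with the seed in capitals, come from GENCODE M21 transcripts.
Krt7 site for miR-29a-3p: aagagtcacccaggTGGTGCTa
Sox9 site for miR-30a-5p: tttttgtatattatTGTTTACa
Sox9 site for miR-101a-3p: aatacttttagtatGTACTGTg

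Position 1811 of the 2648 bases of the Krt7 region starts the first, and positions 2210 and 451 of the 2250 bases of the Sox9 region start the others. Among tested genes, 16.7% held a miR-29a site, 16.4% a miR-30a site and 11.7% a miR-101a site. Spp1, Epcam, Prom1, Krt19 and Krt23 held 0 sites for the 11 miRNAs (let-7a, miR-15a, miR-21a, miR-22, miR-26a, miR-29a, miR-30a, miR-101a, miR-148a, miR-192 and miR-194). Their regions were short, at 432, 637, 901, 103 and 223 bases, against a median of 1314 for tested genes. A tested gene had sites for a median of 1 of the 11. The absence of these letters says nothing of other miRNAs or of other kinds of site, and whether these sites bear on the values of the 7 genes was not tested.

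Other genes of bile duct epithelium, from a list of 28, were compared in the same way. The list was written from general knowledge, but with earlier results of these data known. The lists that follow were also chosen with those results known. Counts and medians over these lists are therefore no independent support for a common direction. Of the 28, 23 passed the count filter, 5 rose and 0 fell, beside 0.741% called higher over all genes tested. In 13, every Dicer LKO library was above every control, an order found for 12.7% of all genes tested. The opposite order was found in 1, beside 2203 of the 14314 genes tested. The median log2 fold change was 0.97. Genes near 0 in the controls pass only where Dicer LKO is high, so the counts of higher genes and the median are tilted upwards. Mmp7, a matrix-degrading protease of duct epithelium, was at 4.27, 3.91 and 7.57 CPM against 0, 0.0961 and 0 CPM. The chloride channel gene Cftr, which drives duct fluid secretion, was at 1.33, 0.524 and 1.08 CPM against 0.0901, 0.0480 and 0.0638 CPM. Cd24a, a surface glycoprotein of progenitor cells, rose by 2.63 (SE 0.31, adjusted p = 0.0159, edgeR) and the epithelial transcription factor gene Ehf by 2.48 (SE 0.40, adjusted p = 0.0386). Bicc1, an RNA-binding protein gene named here after its value was seen, was the fifth, with 1.78 (adjusted p = 0.0280, edgeR). Without Dicer LKO replicate 3 or control replicate 2, 1 of the 28 was called, and without Dicer LKO replicate 1 or control replicate 3, 2 were. In that order, these fits called 31, 61, 39 and 23 of all genes, against 185 with all 6 libraries.

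The transcription factor genes Onecut1 and Onecut2, which act in the forming ducts, were not called. Onecut1 had −2.14 (SE 0.84, adjusted p = 0.229, edgeR), where control replicate 3 stood at 204 CPM beside 65.4 and 20.5 CPM in the other controls. Onecut2 had −0.45 (adjusted p = 0.473, edgeR). Both were named here after their values were seen, and whether they differed from the genes that rose was not tested.

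**Figure D4:**
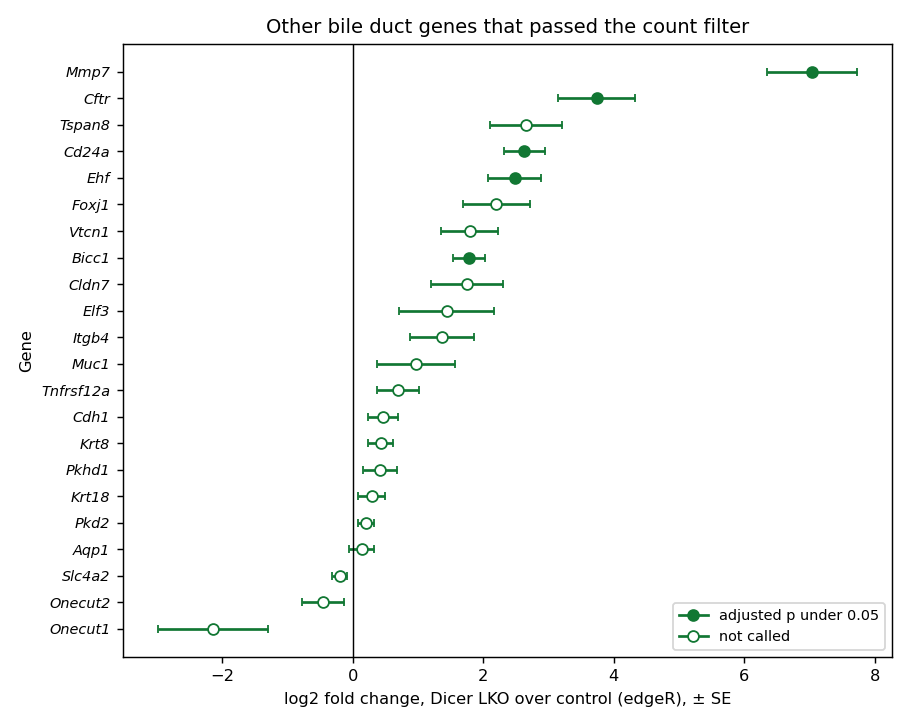
Log2 fold change (± SE, edgeR) of 22 of the 23 other bile duct genes that passed the count filter, with filled points for an adjusted p under 0.05. The 5 filled points lie between 1.78 (Bicc1) and 7.04 (Mmp7), and Onecut1, Onecut2 and Slc4a2 lie left of 0.

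Of 11 progenitor and fetal liver cell genes, 9 were tested, with a median log2 fold change of 1.28, which the count filter can tilt upwards here too. Of the 9, 1 was higher in every Dicer LKO library than in every control, an order found for 12.7% of all genes tested. Cd24a, already counted in the bile duct list, was the 1 that edgeR called, and DESeq2 called Afp as well. Afp, the fetal plasma protein gene re-expressed by immature hepatocytes, was at 6.05, 0.762 and 112 CPM in Dicer LKO and at 0.406, 0.768 and 0.191 CPM in the controls. Replicate 3 was far above the other Dicer LKO libraries, and replicate 2 lay within the controls (log2 fold change 6.38, SE 2.14, adjusted p = 0.184, edgeR). Dicer LKO replicate 3 is also the library with the highest level of all 7 genes above. Lgr5, a Wnt target of pericentral hepatocytes and injured ducts, had −0.37 (adjusted p = 0.475, edgeR).

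The Notch pathway, which directs hepatoblasts to the duct fate, was not called in any of 17 tested genes of 20 by edgeR. At an unadjusted p under 0.05 there were 4, beside 3002 of the 14314 genes tested. Limma voom called 0, and DESeq2 called 1 (Maml1, lower). The receptor Notch2 had −0.35 (adjusted p = 0.228) and the pathway inhibitor Numb −0.18 (adjusted p = 0.547), both by edgeR. The ligand gene Jag1, named after its value was seen, was at 9.26, 11.4 and 10.8 CPM against 8.83, 5.76 and 7.52 CPM (log2 fold change 0.51, adjusted p = 0.194, edgeR). The median of the 17 was −0.18.

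Hippo signalling restrains the co-activator YAP, whose activity in hepatocytes is known to induce duct genes. By edgeR, 0 of 18 tested genes were called, 6 had an unadjusted p under 0.05, limma voom called 0, and DESeq2 called 3. Yap1 itself had −0.09 (adjusted p = 0.800, edgeR) and the kinase gene Lats1 −0.32 (adjusted p = 0.210). The genes DESeq2 called, named for that reason, are known YAP targets that went in different directions, with edgeR log2 fold changes of 1.51 for Ctgf (adjusted p = 0.0633), −1.34 for Cyr61 (adjusted p = 0.0871) and −0.71 for Amotl2 (adjusted p = 0.110).

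Osteopontin acts through integrins and CD44. Among 9 receptor genes, all tested, Itga8 rose, from 9.24, 7.64 and 9.12 CPM in the controls to 22.0, 22.6 and 30.0 CPM (log2 fold change 1.52, SE 0.17, adjusted p = 0.0149, edgeR). The abundant subunit genes Itgb1 and Itgb5 had 0.28 (adjusted p = 0.380) and 0.29 (adjusted p = 0.231), and the median of the 9 was 0.29. Without control replicate 3, 0 of the 9 were called by edgeR, with 1 at an unadjusted p under 0.05, and 23 of all genes were called.

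Markers of other cells that can hold transcripts of the 7 genes were compared as well. The summed levels of macrophage and mesothelium markers overlapped between the groups, and those of stellate cell and fibroblast markers did not. The 14 macrophage markers all had positive values (median 0.81), and Cx3cr1 (2.14) and Trem2 (2.06) rose. Of the 14, 9 were higher in every Dicer LKO library than in every control, an order found for 12.7% of all genes tested. The summed level of the 14 was 531 to 628 CPM in Dicer LKO and 248 to 557 CPM in the controls. For 12 markers of stellate cells and fibroblasts the summed level was 671 to 705 against 447 to 487 CPM. Of these, 10 values were positive (median 0.67), and Lum (2.19), Pdgfra (1.36) and Cygb (1.01) rose. Every Dicer LKO library was above every control for 6 of the 12. Not called by edgeR, and named after their values were seen, were Lrat (0.29, adjusted p = 0.580) and Acta2 (0.40, adjusted p = 0.707). The 2 negative values were those of Reln (−0.02) and Des (−2.32, with control replicate 3 at 62.5 CPM), which were not called either. Without control replicate 3, edgeR called 0 of the macrophage markers (8 had an unadjusted p under 0.05) and 2 of the stellate cell markers. That fit called 23 of all genes. Macrophages can contribute to Spp1 and stellate cells to Sox9, and their part in the values above was not tested. Summed over 6 markers of mesothelium, which also has Krt7 and Krt19, the level was 2.43 to 6.51 CPM in Dicer LKO and 1.01 to 7.84 CPM in the controls, with 0 called of 4 tested by edgeR, 1 at an unadjusted p under 0.05, and 0 by DESeq2 and limma voom. Of these, Gpm6a had 0.85 (adjusted p = 0.378, edgeR) and Upk3b −1.16 (adjusted p = 0.509).

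Exocrine pancreas was represented by few transcripts, and the summed level of the intestine markers was higher. Of 10 exocrine pancreas markers, 6 had 0 counts in every library (Cpa1, Cpb1, Cel, Cela3b, Try4 and Try5), and 1 of the others, Cela2a, which passed the filter, was at 1.24, 9.72 and 1.27 CPM in Dicer LKO against 0.135, 0.480 and 0.191 CPM (log2 fold change 3.87, adjusted p = 0.126, edgeR). DESeq2 called Cela2a higher and limma voom did not. The intestinal transcription factor genes Cdx1 and Cdx2 had 0 counts in all 6 libraries, and the 9 intestine markers summed to 25.3 to 43.3 CPM in Dicer LKO and 21.2 to 36.3 CPM in the controls. The most abundant was Fabp2, at 11.9 to 30.1 CPM in Dicer LKO and 13.5 to 30.5 CPM in the controls. Of the 3 tested, edgeR and limma voom called 0 (1 at an unadjusted p under 0.05) and DESeq2 called 1 (Tff3, higher). Proliferation markers summed to 20.9 to 47.7 CPM against 14.2 to 20.8 CPM, with 8 of 8 tested values positive and 0 called by edgeR (3 at an unadjusted p under 0.05, 1 called by DESeq2, 0 by limma voom). The level was highest in Dicer LKO replicate 2. Of 7 tested erythroid markers, 6 rose, and the summed level of the list was 1142 to 2132 CPM against 278 to 376 CPM. Alas2, named after its value was seen, went the other way and was not called. It was at 67.6, 46.2 and 74.3 CPM against 99.6, 81.4 and 99.6 CPM (log2 fold change −0.58, adjusted p = 0.156, edgeR). Without control replicate 3 edgeR called 0 erythroid markers, with 7 at an unadjusted p under 0.05, and 23 of all genes. The 10 hepatocyte markers summed to 112985, 145372 and 114203 CPM against 97757, 72691 and 54037 CPM. These sums rest largely on Alb (mean 48311 against 34246 CPM) and Trf (45294 against 16036 CPM). The median log2 fold change of the 10 was 0.08, with 7 positive and 3 negative values. By edgeR 0 were called (2 at an unadjusted p under 0.05), by limma voom 0 and by DESeq2 2 (Trf and Fgb, higher). The part of hepatocyte, red cell or dividing cell RNA in the values of the 7 genes was not tested.

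Heart muscle markers summed to 1.24, 0.524 and 11.8 CPM in Dicer LKO and to 13.3, 14.3 and 49.5 CPM in the controls. All 7 that were tested had negative values. Of the 7, 5 were lower in every Dicer LKO library than in every control, beside 2203 of the 14314 genes tested. By edgeR, DESeq2 and limma voom 0 were called, with 1, 1 and 4 at an unadjusted p under 0.05. Myl2 and Myh6, which encode a light and a heavy chain of heart myosin, had 0 counts in Dicer LKO replicates 1 and 2. With only Dicer LKO replicate 3, whose heart muscle level was closest to the controls, set against the 3 controls, edgeR's log2 fold changes were 3.02 for Spp1, 3.77 for Prom1, 2.97 for Epcam, 2.61 for Krt7, 2.49 for Krt19, 1.76 for Krt23 and −0.25 for Sox9. Spp1 and Prom1 were called there (adjusted p = 0.0334 and 0.0203, edgeR), and the other 5 were not (adjusted p = 0.109 to 0.941). This fit was chosen after the data were seen and assumes that the lone library varies like the controls. That library has the highest Dicer LKO level of all 7 genes, so the size of these values is no check on heart muscle RNA, whose part in the results was not tested.

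The genes whose level followed each of the 7 most closely over the 6 libraries were sought among 11491 genes, or 11492 for the low keratins, whose average log2 CPM was 1 or more. Spp1 was followed by F630028O10Rik, Tbx20 and Mfge8 (Pearson r = 0.995, 0.993 and 0.992), of which F630028O10Rik and Mfge8 rose with it (1.35 and 1.45, adjusted p = 0.0470 and 0.0201, edgeR). Epcam was followed by Mapk8ip1, Gm19619 and Fmo4 (0.998, 0.995 and 0.995), and Prom1 by Pmp22, Scarna2 and Anxa1 (0.994, 0.994 and 0.993). Among the keratins, Krt7 and Krt19 had Hand2 in common (0.994 and 0.981), and Krt23 was followed by the receptor gene Erbb4 (0.997), at 3.56 against 0.688 CPM on average. Sox9 was followed by Iqce, F8a and Limk1 (0.994, 0.990 and 0.989). With 6 libraries and so many genes compared, values this high are a ranking only.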

How the data were processed

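Whole liver RNA was sequenced from 3 Dicer LKO and 3 control samples, grouped by title. The authors deposited 1 table per sample with expected counts (estimated reads per gene, not normalized) and TPM (corrected for effective length and scaled to a common total), per the file headers, which have the form RSEM writes. The submitters' processing notes name CASAVA, Bowtie and the human build hg19, while the gene identifiers are mouse. For the strand setting and the mouse build, a statement is not given in the sources used here. Coordinates are from GENCODE M21 (GRCm38), which holds 99.56% of the identifiers. A table of the whole series was not used here: its counts matched the deposited expected counts to within 0.5 in 100% of the 291630 values whose identifiers, without version, were unique and in both.

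Expected counts were rounded to whole numbers (96.0% to 96.5% were whole already). After filterByExpr and TMM scaling, 14314 genes were tested with edgeR 4.0.16 (glmQLFit, robust, and glmQLFTest) in R 4.3.3. Genotype was the single term, and p-values had Benjamini-Hochberg adjustment. Standard errors were derived as |log2 fold change| / √F. The code was tested on simulated data. Alternatives were DESeq2 1.42.0, limma 3.58.1, other filters and scalings, and each library left out. Named genes were the 7 members, Dicer1, called members of each list (up to 4, or the 2 most expressed where fewer than 2 were called) and the 3 genes most correlated with each member. The members and lists were chosen with earlier results of these data known. A gene of the bile duct list is counted with its list but not reported here by name.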

Additional observations from a re-analysis of the deposited data

How the results depend on the processing

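The direction of all 7 genes was the same in every alternative in which they were tested (14 for Krt23, which a stricter filter removed, and 15 for the others). Spp1 was called in 14 of 15, Epcam in 8, Krt7 in 4, Prom1 in 3, Krt19 in 2, and Krt23 and Sox9 in 0. The number of the 7 genes called was 2, and 5 with DESeq2, 1 with limma voom, 4 without a filter on low counts and 1 with limma on log2(TPM + 1). Without each library in turn it ran from 0 (without control replicate 3, edgeR, where 6 had an unadjusted p under 0.05) to 3. For the other bile duct genes it was 5, and 2 with library totals, 8 with DESeq2, 3 with limma voom, and 2 with limma on TPM + 1 or TPM + 0.1. It was 1 to 5 without each library. For all genes it was 185, and 103 with library totals, 1114 with DESeq2, 104 with limma voom, 422 without a filter and 94 with TPM + 1. Without each library in turn, the number for all genes ran from 23 (without control replicate 3) to 389 (without control replicate 1). With only Dicer LKO replicate 3 in its group, an alternative added after the data were seen, 27 genes and 2 of the other duct genes were called. With library totals the median of all genes was −0.13, which shifts each gene by about as much. Log2(TPM + pseudocount) differences understate low genes, with 0.41 for Krt7 at a pseudocount of 1.

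Deviations of same-numbered libraries had correlations of 0.109, 0.065 and −0.096 for numbers 1, 2 and 3, against −0.162 to 0.105 for the other pairs. With 3 libraries per group this cannot exclude a pairing, and the labels do not say what a replicate number shares. With it as a block, 4 of the 7 genes were called, Krt7 (2.37, adjusted p = 0.0482, edgeR) and Prom1 (2.58, adjusted p = 0.0292) in addition, with 6 of the other duct genes and 245 genes in all. The planned fit without libraries holding heart muscle transcripts was not run, as no library met its rule. Counts of 3 to 71 for Krt7, Krt19 and Krt23 limit their precision.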
